A study of Mus musculus with 4 samples.

Results

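The genes described here encode the working parts of the lysosome: acid hydrolases and their helper proteins, proteins of the lysosomal membrane, and the vacuolar proton pump (V-ATPase) with its accessory proteins. They were taken from a list of 29 named lysosomal genes and from every gene symbol beginning with Atp6, leaving out the cathepsins other than Ctsa. On the array 41 such genes had a probe set annotated to a single symbol, out of 8251 genes in all, and 15 of the 41 belonged to the pump. Manba, Arsb and Sgsh were not analysed here. Where a gene had several probe sets, the brightest on average over the 4 arrays stood for it.

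Lysosomal enzymes are made in the endoplasmic reticulum, tagged with mannose 6-phosphate and carried to an organelle that the V-ATPase keeps acidic. The pump has a soluble V1 sector, which splits ATP, and a V0 sector in the membrane, which passes protons. Endoderm of the yolk sac takes up and degrades maternal proteins, and its visceral cells are known for large endocytic and lysosomal compartments.

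The series compared extraembryonic endoderm (XEN) cells, lines derived from the primitive endoderm lineage, with embryonic stem (ES) cells, using total RNA on Affymetrix MG_U74Av2 arrays, 1 array for each of 4 cultures. Of the 3 XEN cultures, IM8A1-I and IM8A1-II were the same line (IM8A1, PO strain, passage 27). IM8A1-I was kept on gelatin in 70% EMFI-CM, a medium the labels name only by these letters, and IM8A1-II was grown for 4 days in RPMI 1640 with 20% FBS on plastic. The scanner's run record for IM8A1-II carries the note 8A1-DIFF, whose meaning no label gives, and the culture was kept in the XEN group as labelled. XEN1-3 was a second line (ICR strain, passage 18), on gelatin in 70% EMFI-CM. The ES group was a single culture of undifferentiated R1 cells on gelatin with LIF. The XEN group therefore stands for 2 lines, the p-values measure only the spread between these 3 cultures, and the lone ES culture is taken to vary like them.

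Values are probe set signals in arbitrary units. A signal under 27.3 units, the 40th percentile of all values, is treated as under the background limit. The 3 XEN arrays came from another chip lot and another day than the ES array, so chip lot, run day and cell type cannot be told apart. The run record of XEN1-3 alone carries a message that fluid was not detected. The 3'/5' ratio of the actin controls was 1.21 to 1.24 on the XEN arrays and 1.25 on the ES array. Markers of both cell types were as labelled: 8 of 8 XEN markers summed to between 15432 and 19994 units in XEN cultures and to 293 in ES cells, and 7 of 7 ES markers to between 56.9 and 65.5 units in XEN cultures and to 19815 in ES cells. Among 13 macrophage markers, whose cells are rich in lysosomes, 8 lay under the limit on every array, including Ptprc (1.70 to 2.10 units in XEN cultures, 1.60 in ES cells) and Itgam (4.90 to 6.10 and 4.90). Of the 5 tested macrophage markers, Laptm5 fell, at 17.5 to 20.9 units in XEN cultures and 224 in ES cells. The other 4 (Cd68, Csf1r, Cd14 and Mpeg1) had log2 differences of 0.40 to 0.68 without passing (adjusted p = 0.255 to 0.674). All 13 summed to between 372 and 570 units in XEN cultures and to 514 in ES cells, where Laptm5 made up 224, and the part of such cells in the results was not tested. Fibroblast and feeder markers, 14 on the array, summed to between 798 and 950 units in XEN cultures and to 1271 in ES cells. Tagln alone made up 538 of that ES sum, with 36.1 to 214 units in XEN cultures. Of the 10 tested, 3 (Col1a2, Twist2 and Lum) lay above ES in all XEN cultures, 4 lay below it in all and 3 overlapped. Thy1 fell, 0 rose and 9 did not pass, and the part of such cells in the results was not tested either. In bulk RNA, more cells of a type and more RNA per cell cannot be told apart.

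Many lysosomal genes are known targets of the transcription factor TFEB, whose sites are built around the letters CACGTG, so the promoters of the genes were searched for them. RefSeq promoter sequences (GRCm38.p6, 250 bases before and 50 after each start site) were matched by symbol for 34 of the 41 genes, giving 37 promoters. The letters CACGTG, which read the same on both strands, occurred in 11 of the 37 (29.7%), compared with 7.15% of 32851 promoters in the table. The longer TCACGTGA, which contains the first motif and is also its own reverse complement, occurred in 6 of the 37 (16.2%), compared with 0.974%. The stretches below show the promoters of Lamp1, with 4 copies, and of Ctsa, Cln3, Gla, Atp6v1a and Atp6v0b. Each is written 5′ to 3′ along the gene's strand and ends before the start site, with CACGTG in capitals.
Lamp1: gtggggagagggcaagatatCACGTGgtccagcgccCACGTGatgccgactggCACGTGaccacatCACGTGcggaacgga
Ctsa: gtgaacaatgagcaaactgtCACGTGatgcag
Cln3: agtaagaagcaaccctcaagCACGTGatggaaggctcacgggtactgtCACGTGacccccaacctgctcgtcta
Gla: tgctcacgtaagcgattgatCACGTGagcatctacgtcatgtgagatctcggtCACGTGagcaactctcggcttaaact
Atp6v1a: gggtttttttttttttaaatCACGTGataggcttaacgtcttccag
Atp6v0b: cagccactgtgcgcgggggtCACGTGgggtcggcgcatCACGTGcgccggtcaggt
The Lamp1 stretch lies at chr8:13159080-13159160 (+), Ctsa at chr2:164833741-164833772 (+), Cln3 at chr7:126583332-126583405 (-), Gla at chrX:134601174-134601252 (-), Atp6v1a at chr16:44139365-44139410 (-) and Atp6v0b at chr4:117887330-117887385 (-). The Ctsa and Cln3 stretches belong to 1 of 2 start sites listed for each gene, and Ctsa has a further copy just after that start. For the genes that rose in XEN cells, as given below, 2 of 10 promoters held CACGTG (those of Lamp1 and Ctsa). So did 9 of the 26 promoters of the other tested genes. The counts are small, and a link between the motif and the rises was not tested. A match is a run of letters and not a measured binding site.

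Lysosomal genes were on the whole higher in XEN cells than in ES cells, by modest amounts. Of the 41 genes, 40 reached the background limit on at least 1 array and were tested, and the thioesterase gene Ppt1 did not. In limma's moderated test, run over 8582 probe sets with Benjamini-Hochberg adjustment and a threshold of 0.05, 9 of the 40 genes rose in XEN cells (22.5%), 1 fell and 30 did not pass. Of all 6345 genes tested, 1 probe set each, 5.75% rose and 5.37% fell. The 9 that rose were Lamp1, Lamp2, Cd63, Idua, Man2b1, Ctsa, Atp6v0a1, Atp6ap1 and Atp6ap2, and the 1 that fell was Gusb. Of the 5 members on the X chromosome, 3 rose (Lamp2, Atp6ap1 and Atp6ap2), beside 7.69% of 182 X-linked genes tested. Each of the 9 was at least 2-fold above ES in every XEN culture, a pattern not counted over all genes that rose. Another 13 were higher with an unadjusted p under 0.05. That made 22 of the 40 in all, compared with 944 of the 6345 genes tested.

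The direction was more general than the calls. In 33 of the 40 genes (82.5%) all 3 XEN cultures lay above the ES culture, a pattern seen in 37.9% of all tested genes, and in 2 all lay below it, against 35.3% of all tested genes. The median log2 difference of the 40 genes was 0.77, compared with 0.03 over all tested genes. By culture it was 0.94 (IM8A1-I), 0.90 (IM8A1-II) and 0.89 (XEN1-3). Galc, Gla and Lipa lay under the limit in ES cells and Gusb in all XEN cultures, so these 4 entered the test through 1 group only. With them set at the smallest change their signals allow, the median was 0.74.

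**Figure D1:**
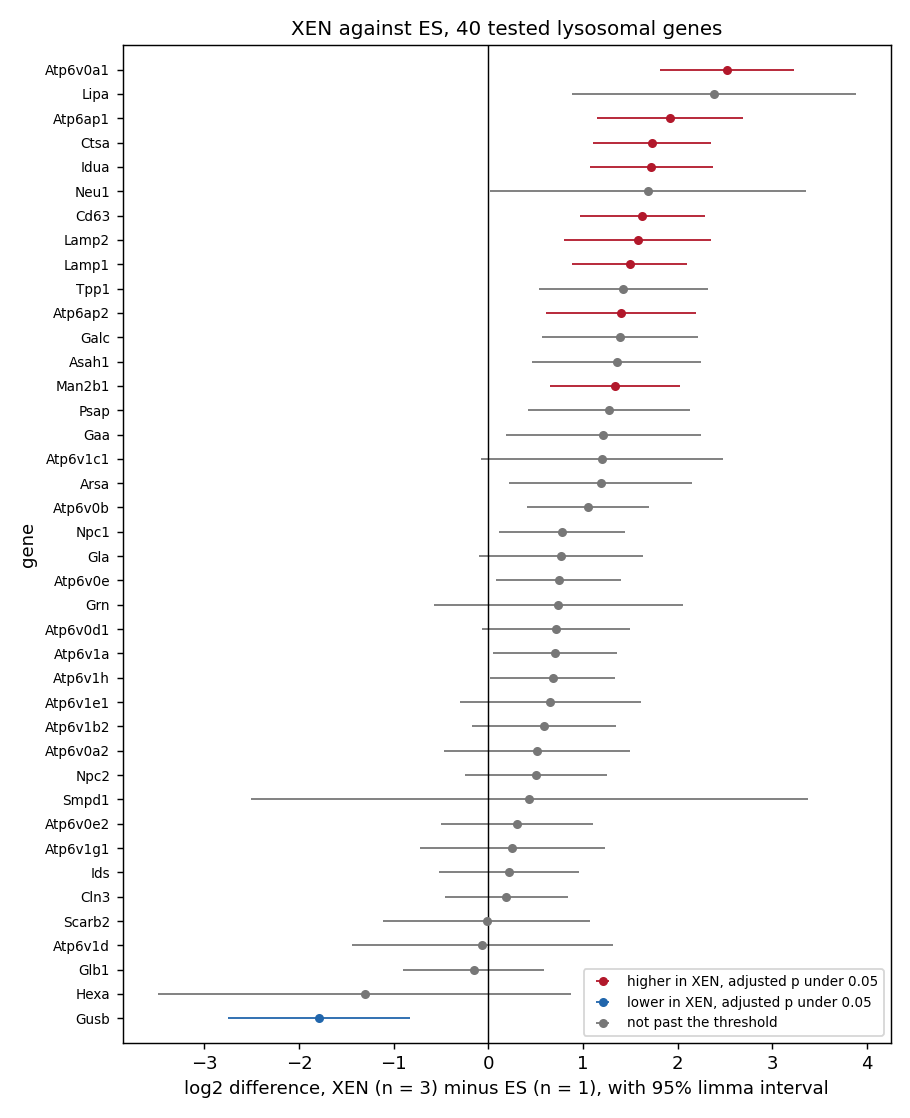
Log2 difference of XEN (n = 3) minus ES (n = 1) for the 40 tested genes, with 95% intervals from limma. The 9 genes in red rose and Gusb, in blue, fell, while most of the 30 grey genes also lie right of 0.

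The number of calls depended on single arrays. Without IM8A1-I 2 of the 40 genes rose, without IM8A1-II 3 and without XEN1-3 15, while the share of all probe sets that rose was 2.16%, 2.71% and 9.07%. With each gene taken as the mean of all its probe sets, or with signals floored at the background limit, 5 rose. Without XEN1-3 the XEN group holds only cultures of line IM8A1, so that setting measures the spread within a single line. With each XEN line counted once, the calls on Man2b1, Atp6ap2 and Gusb were lost.

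The proteins of the lysosomal membrane gave 3 of the 9 rises among 6 members. Lamp1 and Lamp2 encode the glycoproteins that coat the inner face of the membrane. XEN cultures are given in the order IM8A1-I, IM8A1-II, XEN1-3 from here on. Lamp1 stood at 5460, 5041 and 4578 units in XEN cultures, against 1776 in ES cells. The XEN cultures were close to each other and far above ES, a difference of 1.49 ± 0.24 in log2 (SE, adjusted p = 0.0221), or 2.81-fold. This is the gene with 4 copies of CACGTG in the promoter stretch above. Its adjusted p was 0.0771 without IM8A1-I and 0.0559 without a filter on dim probe sets.

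Lamp2 read 510, 736 and 689 units in the same XEN cultures, against 207 in ES cells, and rose by 1.58 ± 0.32 in log2 (adjusted p = 0.0348). All 3 XEN values lay well above the ES value, but the call was lost under 4 of 13 alternatives, among them leaving out IM8A1-I or IM8A1-II, with an adjusted p of up to 0.0932. Cd63, a tetraspanin of late endosomes and lysosomes, stood at 2346, 2904 and 2886 units in XEN cultures and 866 in ES cells, a rise of 1.63 ± 0.26 (adjusted p = 0.0216). Its groups were also far apart, and its adjusted p was 0.0549 without IM8A1-I.

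The other membrane members did not pass. Npc1, which exports cholesterol from the lysosome, read 577, 473 and 532 units in XEN cultures and 303 in ES cells, with a log2 difference of 0.78 ± 0.27 (adjusted p = 0.124). Cln3, mutated in juvenile Batten disease, read 145, 155 and 139 units in XEN cultures, against 126 in ES cells, and its 95% interval of -0.46 to 0.84 in log2 leaves out changes of 2-fold. Scarb2 (LIMP-2), which carries glucocerebrosidase to lysosomes, stood at 161, 137 and 285 units in XEN cultures and 187 in ES cells. For Scarb2 the groups overlapped: only XEN1-3 lay above ES, and the log2 difference was -0.02 ± 0.44 (adjusted p = 0.986).

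Among 9 glycosidases, enzymes that cut sugars from glycans and glycolipids, 2 rose, 1 fell and 6 did not pass (median log2 difference 1.22, or 0.63 with Galc, Gla and Gusb set at their bounds). Idua, the iduronidase of dermatan and heparan sulfate breakdown, stood at 149, 152 and 160 units in XEN cultures, against 39.2 in ES cells. The 3 XEN values were nearly equal, and the rise was 1.72 ± 0.26 in log2 (adjusted p = 0.0180, but 0.0592 without IM8A1-I and 0.0563 without IM8A1-II). Man2b1, the lysosomal alpha-mannosidase, read 532, 541 and 439 units in XEN cultures and 192 in ES cells, a rise of 1.34 ± 0.28 (adjusted p = 0.0390). The call on Man2b1 was lost under 5 of 13 alternatives, among them counting each XEN line once.

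Gusb, the beta-glucuronidase, went against the rest. It read 12.6, 22.2 and 12.5 units in XEN cultures, all under the background limit, and 78.9 units in ES cells, so that XEN was at least 2.89-fold lower (adjusted p = 0.0432). The XEN signals are too dim to give more than this bound, and the call was lost under 5 of 13 alternatives, among them leaving out IM8A1-I or IM8A1-II. Hexa, the alpha chain of beta-hexosaminidase, was also lower in all 3 XEN cultures, but unevenly, at 62.2, 19.9 and 159 units in XEN cultures against 168 in ES cells. XEN1-3 almost reached the ES level, and the log2 difference of -1.31 ± 0.88 did not pass (adjusted p = 0.372).

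Gaa, which degrades glycogen, stood at 1188, 810 and 1613 units in XEN cultures and 492 in ES cells (log2 difference 1.22 ± 0.42, adjusted p = 0.119). Neu1, a sialidase, read 117, 116 and 371 units in XEN cultures and 46.3 in ES cells (1.69 ± 0.68, adjusted p = 0.164), with XEN1-3 well above the other XEN cultures. Both were above ES in each XEN culture but too uneven among the cultures to pass. Galc, the galactosylceramidase, was dim, at 44.6, 46.7 and 36.3 units in XEN cultures against 9.60 in ES cells (at least 1.55-fold higher, adjusted p = 0.0547). Gla, the alpha-galactosidase with 2 motif copies in its promoter, read 38.5, 27.4 and 33.6 units in XEN cultures and 15.0 in ES cells (adjusted p = 0.208). Glb1, the beta-galactosidase, overlapped, at 166, 207 and 232 units in XEN cultures and 223 in ES cells. The 2 sulfatases did not pass: Arsa read 159, 185 and 291 units in XEN cultures against 84.2 in ES cells (adjusted p = 0.111), and Ids 89.2, 103 and 124 units against 88.2.

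Of 8 tested genes for lipid and peptide breakdown and their helper proteins 1, Ctsa, rose and 7 did not pass, with a median log2 difference of 1.31. Ctsa encodes protective protein, a carboxypeptidase that stabilises beta-galactosidase and sialidase in a complex. It stood at 826, 831 and 779 units in XEN cultures and 237 in ES cells, a rise of 1.73 ± 0.25 in log2 (adjusted p = 0.0163), or 3.32-fold. The XEN cultures were alike and all lay far above ES, and the adjusted p was 0.0612 without IM8A1-I and 0.0504 without IM8A1-II. Of its partners in that complex, Neu1 and Glb1, neither passed, and Glb1 did not separate the groups.

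Several other genes of this class lay above ES in every culture just outside the threshold. Tpp1, a tripeptidyl peptidase, stood at 1685, 2023 and 1179 units in XEN cultures against 585 in ES cells (log2 difference 1.42 ± 0.36, adjusted p = 0.0622). Asah1, the acid ceramidase, read 469, 587 and 799 units in XEN cultures and 229 in ES cells (1.36 ± 0.36, adjusted p = 0.0693). Psap, the precursor of the saposins that present sphingolipids to their enzymes, read 953, 838 and 1352 units in XEN cultures and 418 in ES cells (1.27 ± 0.35, adjusted p = 0.0726). A position of all XEN cultures above ES, as in these 3 genes, was seen in 37.9% of all tested genes. Tpp1 and Asah1 passed without XEN1-3, with only the IM8A1 cultures left in the XEN group, and Psap did not.

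Lipa, the acid lipase that frees cholesterol and fatty acids from taken-up lipoproteins, showed the widest gap of this class on the log2 scale. It read 66.3, 202 and 177 units in XEN cultures and 17.4 units, under the limit, in ES cells, at least 4.89-fold higher (adjusted p = 0.0626). IM8A1-I was low among the XEN cultures, and Lipa passed without it (adjusted p = 0.0253) or with each XEN line counted once.

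Smpd1, the acid sphingomyelinase, did not separate the groups. It read 429, 306 and 38.5 units in XEN cultures, against 130 in ES cells, so that the IM8A1 cultures lay above ES and XEN1-3 below it. Without XEN1-3, with only the IM8A1 cultures left in the XEN group, it passed as higher. Grn, progranulin, read 256, 562 and 228 units in XEN cultures and 188 in ES cells (adjusted p = 0.399), and Npc2, the lumenal partner of Npc1 in cholesterol export, 776, 1045 and 756 units in XEN cultures and 597 in ES cells (adjusted p = 0.323). Ppt1 read 13.5, 5.50 and 20.7 units in XEN cultures and 22.0 in ES cells, all under the limit.

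**Figure D2:**
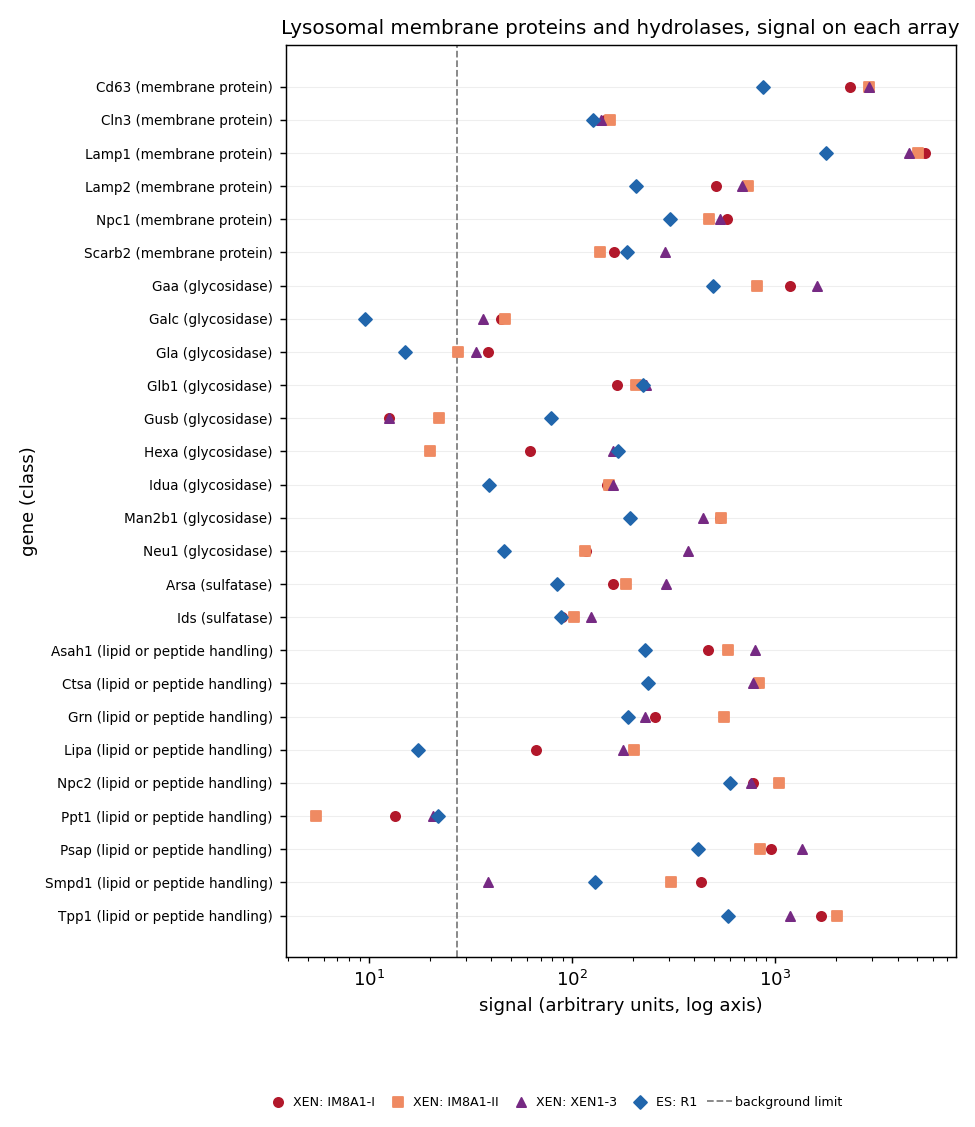
Signal of the 26 membrane protein, hydrolase and helper genes on each array, on a log axis in arbitrary units, with the background limit dashed. Lamp1, Lamp2, Cd63, Idua, Man2b1 and Ctsa show 3 XEN points grouped to the right of the ES diamond, Gusb shows the reverse, and Smpd1, Hexa and Neu1 show widely spread XEN points.

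In the proton pump the rises were in 1 subunit of the membrane sector and in the accessory proteins. Of 15 pump genes 3 rose in limma's test, 0 fell (0 at an unadjusted p under 0.05) and 12 did not pass. All 3 XEN cultures lay above ES in 13 of the 15, against 37.9% of all tested genes, and the median log2 difference was 0.71.

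Atp6v0a1, which encodes the a1 form of the large membrane subunit, showed the widest log2 difference of the 40 genes with all arrays and the offset used, although Lipa exceeded it with an offset of the 5th percentile (2.82 for Lipa, 2.70 for Atp6v0a1) and without IM8A1-I (2.84 and 2.58). It stood at 333, 339 and 421 units in XEN cultures, against 54.4 in ES cells. The XEN cultures were far above ES, with a rise of 2.52 ± 0.29 in log2 (adjusted p = 0.00891), or 5.74-fold. It passed under 12 of 13 alternatives, and not when averaged with its second probe set, which lay under the limit on every array (adjusted p = 0.0729).

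The a2 form did not show such a change. Atp6v0a2 read 188, 173 and 314 units in XEN cultures and 149 in ES cells, a log2 difference of 0.52 ± 0.40 (95% interval -0.47 to 1.50, adjusted p = 0.431). The a3 form, encoded by Tcirg1, is not among the 41 genes, and read 128, 143 and 217 units in XEN cultures and 103 in ES cells (0.57 ± 0.36, adjusted p = 0.345). The difference between the forms was not tested.

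Both accessory proteins rose. Atp6ap1 (Ac45), which takes part in assembly and routing of the pump, read 532, 540 and 743 units in XEN cultures and 151 in ES cells, 1.92 ± 0.31 higher in log2 (adjusted p = 0.0216). Atp6ap2, also known as the prorenin receptor, read 229, 331 and 238 units in XEN cultures and 92.5 in ES cells, 1.40 ± 0.32 higher (adjusted p = 0.0490). Each XEN value was at least 2-fold above ES for both. However, Atp6ap2 lay at the edge of the threshold and kept its call under 3 of 13 alternatives. The call was lost with each XEN line counted once. Atp6ap1 kept its call under 9 of 13.

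The other V0 subunits were higher by smaller amounts that did not pass. Atp6v0b, a proteolipid of the proton-carrying ring with 2 motif copies in its promoter, read 1337, 1118 and 1225 units in XEN cultures and 583 in ES cells (1.06 ± 0.26, adjusted p = 0.0583). Atp6v0d1, which joins the ring to the central stalk, read 1245, 1137 and 843 units in XEN cultures and 643 in ES cells (adjusted p = 0.197), and Atp6v0e 569, 607 and 505 units in XEN cultures and 329 in ES cells (adjusted p = 0.133). All 3 XEN cultures lay above ES in these 3 genes, as in 37.9% of all tested genes. Atp6v0e2, a paralog of Atp6v0e, differed by 0.30 ± 0.33 in log2, at 219, 333 and 254 units in XEN cultures and 213 in ES cells.

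None of the 7 subunits of the V1 sector passed limma's test, and 2, Atp6v1a and Atp6v1h, were higher at an unadjusted p under 0.05. As 5.75% of all tested genes rose, 0 of 7 says little about the sector. The median log2 difference of the 7 was 0.66, beside 0.73 for the 6 V0 genes. Atp6v1a, the catalytic subunit, read 2049, 2272 and 1795 units in XEN cultures and 1237 in ES cells (0.71 ± 0.26, adjusted p = 0.143). Atp6v1h, a regulatory subunit, read 608, 565 and 510 units in XEN cultures and 345 in ES cells (0.68 ± 0.27, adjusted p = 0.157). Atp6v1b2, which also binds nucleotide, read 1615, 1751 and 1203 units in XEN cultures and 996 in ES cells (adjusted p = 0.262). These 3 lay above ES in all XEN cultures, by margins smaller than those of Atp6v0a1. Of all tested genes, 37.9% lay above ES in all XEN cultures.

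The stalk subunits of V1 were less even. Atp6v1c1 read 1269, 1208 and 550 units in XEN cultures and 406 in ES cells (adjusted p = 0.190). It passed only without XEN1-3, when the XEN group held no line but IM8A1. Atp6v1e1 read 461, 707 and 829 units in XEN cultures and 406 in ES cells (adjusted p = 0.310). For Atp6v1d, at 767, 691 and 298 units in XEN cultures and 565 in ES cells, and for Atp6v1g1, at 1208, 1241 and 703 units in XEN cultures and 851 in ES cells, the IM8A1 cultures lay above ES and XEN1-3 below it. The log2 difference was -0.06 ± 0.56 for Atp6v1d and 0.26 ± 0.40 for Atp6v1g1, neither past the threshold.

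**Figure D3:**
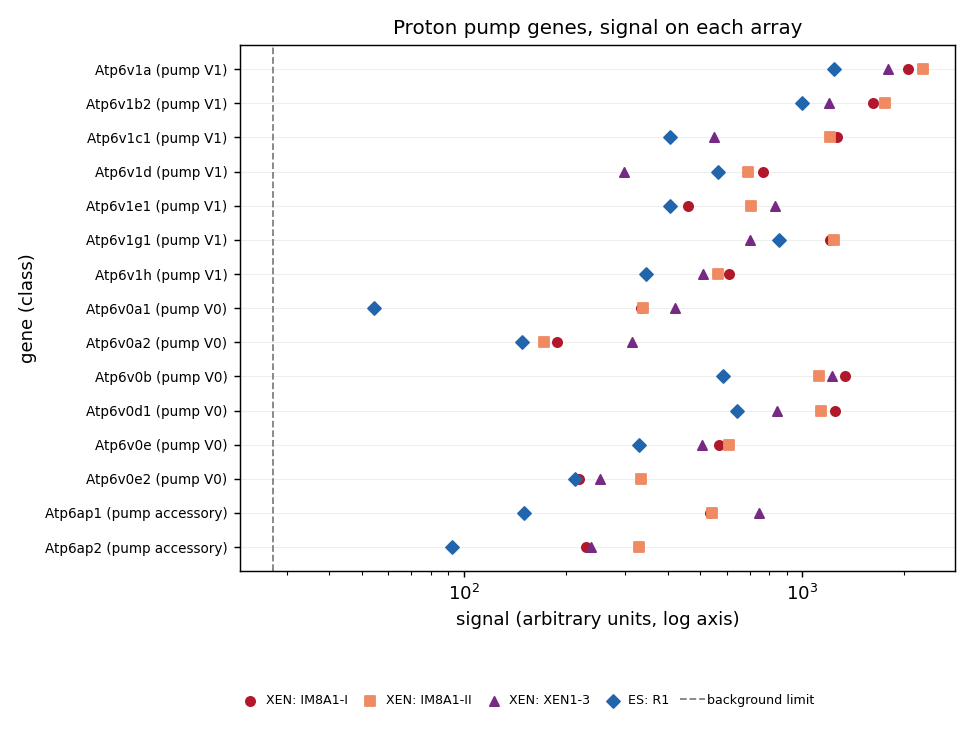
Signal of the 15 proton pump genes on each array, on a log axis in arbitrary units, with the background limit dashed. The ES diamond lies left of all XEN points for 13 genes, most of all for Atp6v0a1, and between XEN points for Atp6v1d and Atp6v1g1.

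The XEN cultures were then compared with each other, 1 array against 1, which allows no test. IM8A1-II and IM8A1-I are the same line in different medium and on a different surface. Of the 40 genes 2 were at least 2-fold higher in IM8A1-II, against 3.36% of all tested genes, and 1 was at least 2-fold lower, against 2.60%. Lipa read 202 units in IM8A1-II and 66.3 in IM8A1-I, a 2.77-fold difference on the offset scale, and Grn 562 and 256 units, 2.15-fold. Hexa read 19.9 units in IM8A1-II, under the limit, and 62.2 in IM8A1-I. The signed median log2 difference over the 40 genes was 0.03, with genes lying on both sides of 0, among them Atp6v1e1 at 0.61 and Gaa at -0.55.

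XEN1-3 and IM8A1-I are different lines in the same medium. At least 2-fold higher in XEN1-3 were 3 of the 40 genes, against 4.37% of all tested genes, and 3 were at least 2-fold lower, against 4.41%. Neu1 read 371 units in XEN1-3 and 117 in IM8A1-I (2.99-fold), Lipa 177 and 66.3 units (2.44-fold), and Hexa 159 and 62.2 units (2.33-fold). In the other direction Smpd1 read 38.5 units in XEN1-3 and 429 in IM8A1-I, a log2 difference of -3.16, the widest of any of these genes. Atp6v1d (298 and 767 units, log2 difference -1.34) and Atp6v1c1 (550 and 1269 units, -1.19), both of V1, were the others.

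The 3 XEN cultures set against each other put 8 of the 40 genes at least 2-fold apart in some pair, the 7 named above and Scarb2. The share of all tested genes past 2-fold in some pair was not counted, so the 8 are not read as a trait of these genes. XEN1-3 was the lowest XEN culture for 6 of the 7 V1 genes, all but Atp6v1e1. It was the lowest for 18 of the 40 genes and for 32.8% of all tested genes. The V1 pattern was noticed in these values and was not tested, and the fluid message on the XEN1-3 run record stands beside it without a test of its part.

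**Figure D4:**
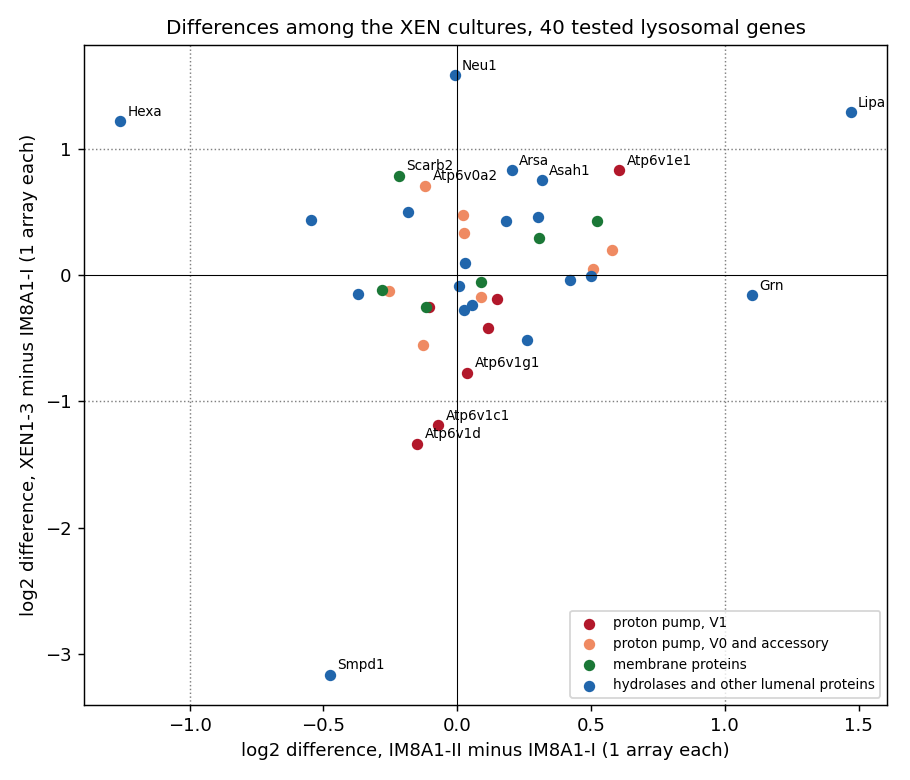
Log2 differences among the XEN cultures for the 40 tested genes, IM8A1-II minus IM8A1-I across and XEN1-3 minus IM8A1-I upward, with dotted lines at 2-fold. Most genes lie inside the dotted lines, Smpd1 lies far below them, and Atp6v1c1 and Atp6v1d lie below on the vertical axis only.

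Genes that work with these were described from further lists. Of 13 tested genes for other lysosomal enzymes and cofactors 3 rose, 0 fell and 10 did not pass (median log2 difference 0.40). Of all tested genes 5.75% rose. Naglu read 179, 207 and 234 units in XEN cultures and 58.0 in ES cells (1.66 ± 0.29, adjusted p = 0.0249). Hgsnat read 127, 146 and 166 units in XEN cultures and 53.8 in ES cells (adjusted p = 0.0473, lost under 9 of 13 alternatives). Naglu lost its call when either IM8A1 culture was left out (adjusted p = 0.0607 and 0.0691). The third was the protease gene Lgmn, with a log2 difference of 4.41. Of those that did not pass, Acp5, a tartrate-resistant acid phosphatase, had an adjusted p of 0.0594 and Pcyox1, which degrades prenylcysteines, one of 0.198.

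Of 8 tested genes for tagging and sorting of lysosomal enzymes 1 rose, 0 fell and 7 did not pass, with a median log2 difference of 0.76. Beside the 5.75% of all tested genes that rose, 1 of 8 says little about the list. The riser was Sumf1, which activates sulfatases, at 154, 170 and 175 units in XEN cultures and 33.9 in ES cells (1.99 ± 0.27, adjusted p = 0.0134, called under all 13 alternatives). The sulfatase genes Arsa and Ids themselves did not pass, as given above. Ap1m1, of the adaptor that packs enzymes at the Golgi, had an adjusted p of 0.0627, and Gnptab, which makes the mannose 6-phosphate tag, one of 0.0822. The mannose 6-phosphate receptor gene Igf2r read 395, 431 and 567 units in XEN cultures and 318 in ES cells (adjusted p = 0.324), and M6pr lay under the limit on all arrays.

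Of 15 tested further membrane proteins and pump partners 1 rose, the iron transporter Slc11a2, at 189, 185 and 177 units in XEN cultures and 61.8 in ES cells (adjusted p = 0.0289). This call was lost under 4 of 13 alternatives, among them counting each XEN line once (adjusted p = 0.0565). One fell, Laptm5, at 17.5, 20.9 and 20.2 units in XEN cultures and 224 in ES cells, at least 8.22-fold lower (adjusted p = 0.00728, but 0.0992 for the probe set of highest mean log2 value). The list median was 0.42. Of all tested genes 5.75% rose and 5.37% fell, so 1 rise and 1 fall among 15 say little about the list. The lysosomal chloride carrier Clcn7 (adjusted p = 0.0593) and the late endosomal GTPase Rab7 (0.0772) did not pass. Of 9 tested cathepsins other than Ctsa 6 rose (Ctsb, Ctsc, Ctsd, Ctsh, Ctsl and Ctsz), 0 fell and 3 did not pass, with a median of 1.41. With each XEN line counted once, Ctsb (adjusted p = 0.0711), Ctsd (0.0667) and Ctsz (0.0707) were no longer called, and Ctsb and Ctsz were lost under 9 of 13 alternatives. Of the 3 that did not pass, Ctse had an adjusted p of 0.184 and Ctsf of 0.401. A difference between the cathepsins and the other lysosomal genes was not tested.

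Of 8 tested genes for regulators of lysosomal transcription, 0 rose in limma's test, 1 fell and 7 did not pass. At an unadjusted p under 0.05, 2 were higher and 2 lower. As 5.75% of all tested genes rose, 0 of 8 says little about the regulators. All 3 XEN cultures lay above ES in 5 of the 8 and below it in 2, against 37.9% and 35.3% of all tested genes. The median log2 difference of the 8 was 0.35. Mtor, the growth kinase that holds TFEB out of the nucleus, read 116, 128 and 94.8 units in XEN cultures and 307 in ES cells, a log2 difference of -1.37 ± 0.29 (adjusted p = 0.0419), and this call was lost under 6 of 13 alternatives. Tfeb itself read 19.6, 10.0 and 13.1 units in XEN cultures, under the limit, and 50.5 in ES cells, at least 1.85-fold lower without passing (adjusted p = 0.0911). Flcn, folliculin, which acts upstream of Mtor and TFEB, had an adjusted p of 0.0837. Usf2, another factor that binds CACGTG, read 259, 237 and 297 units in XEN cultures and 114 in ES cells (adjusted p = 0.0578). Transcript levels of these regulators do not measure their activity.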

How the data were processed

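Total RNA from 4 cultures was measured on 4 arrays, 3 XEN and 1 ES, grouped by the labels. The authors deposited linear intensity values for 12488 probe sets, each a summary over many probes. For that summary step, the software was not named in the labels or headers. Their 2% trimmed means (150.1 on each array) show that the authors had already scaled the arrays. Other settings, such as chip type and lot, were read from the run records, per the file headers.

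Arrays were brought to the same 2% trimmed mean, 10.5 units (the 25th percentile) were added and log2 was taken, so fold changes understate the change of dim genes. The 66 control probe sets counted in the scaling only and were left out of the limit, the offset and the tests. Probe sets with at least 1 array at or above the 40th percentile, 27.3 units, were tested (8582). The limit is not a detection call. Where a group lay wholly under it, the brighter group's geometric mean was divided by that limit and the fold written "at least". Symbols came from the platform annotation, and 10817 of 10833 probe sets with 1 symbol matched the RefSeq table of GRCm38.p6 by gene ID. Differences are limma 3.58.1 (R 4.3.3) estimates with a variance trend, 2 residual and 3.76 prior degrees of freedom, two-sided, adjusted over all tested probe sets. The script was tested on simulated data. With 1 array per culture, the number of arrays limits the precision.

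Genes were named by rule: all members, and from each further list the genes past the threshold and up to 2 others with the smallest p. Tfeb, Igf2r, M6pr and Tcirg1 were named besides for their roles, with their values known. The members and lists were chosen with earlier results of these data known. Alternatives varied the offset, floor, filter, scaling, variance model, cultures and probe set choice. Figures were drawn with matplotlib 3.10.9.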

Additional observations from a re-analysis of the deposited data

How the results depend on the processing

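No paired analysis was possible because the ES group is a single culture and the labels give no shared replicate numbers. All 13 alternatives were run. With all arrays, 9 of the 40 genes rose and 1 fell. The number that rose was 5 with values raised to the 40th percentile and 5 with the mean of all probe sets of a gene, and between 2 and 15 when 1 XEN culture was left out. Between 7 and 10 rose under the other 8 alternatives. Gusb was no longer called, so that 0 fell, with an offset of the 5th percentile, without a filter on dim probe sets and with each XEN line counted once, and 0 or 1 fell when 1 culture was left out. Of the 10 calls, 1 was kept without IM8A1-I, 3 without IM8A1-II and 10 without XEN1-3. Leaving out a culture leaves 3 arrays and fewer degrees of freedom. Without XEN1-3 the XEN cultures left are of a single line. At least 2-fold differences between IM8A1-II and IM8A1-I numbered 1 with the mean of all probe sets, in place of 3. Signs changed for 3 genes that did not pass with all arrays: Scarb2 (0.13 with each line counted once, and -0.31 to 0.19 when a culture was left out), Smpd1 (-0.0531 with each line counted once, and -0.17 to 1.41) and Atp6v1d (-0.31 to 0.36). The causes were not tested. Genes near the limit of 27.3 units, such as Galc, Gla, Gusb and Ppt1, are measured least well.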

Other observations

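Beyond the chosen probe sets, the genes had 20 further probe sets, of which 11 reached the background limit and 0 passed limma's test. Of the 11, 9 had the sign of the chosen probe set. The exceptions were a probe set of Grn and one of Psap, at log2 differences of -0.42 and -0.05. Another probe set of Psap stood at 105, 42.5 and 113 units in XEN cultures (IM8A1-I, IM8A1-II, XEN1-3), against 11.4 in ES cells, with a log2 difference of 2.06 (adjusted p = 0.0676). The second tested probe set of Lamp2 differed by 0.61 (adjusted p = 0.317) and that of Man2b1 by 0.73 (0.320), smaller than the differences of the chosen ones.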
